A study of Mus musculus with 6 samples.

Results

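Enzymes that add methyl groups to histone lysines, or take them off, were followed in naive CD4+ T cells of mouse spleen after rapamycin. They were chosen by name: autosomal protein-coding genes whose symbol starts with Kmt, Kdm or Setd, together with Ezh1, Ezh2, Nsd1, Nsd2, Nsd3, Ash1l and Dot1l. This gave 40 genes of the 55487 in the files, and 39 of them passed the filter on low counts. Another 5 genes matched by name but were left out, namely the X- and Y-linked Kdm5c, Kdm6a and Kdm5d, the antisense gene Kdm6bos and the pseudogene Kdm4dl. Poly(A) RNA was sequenced from 3 libraries of mice treated in vivo with rapamycin, an inhibitor of the kinase mTOR, and 3 of mice given no treatment. All were wild-type C57BL6/J animals. The labels used here give no dose, duration, age or sex. Nor do they say whether each library of a group is a different mouse, so the spread behind every p-value may be partly or wholly technical.

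Histone lysine methylation marks the state of chromatin. Methylation of lysines 4, 36 and 79 of histone H3 is found at active genes, and methylation of its lysines 9 and 27 at silenced ones. Methyltransferases, here called writers, take the methyl group from S-adenosylmethionine, and nearly all carry a SET domain, Dot1l being the exception. Demethylases, here called erasers, use either flavin, as Kdm1a and Kdm1b do, or iron and 2-oxoglutarate, as the JmjC proteins do. In naive T cells these marks hold lineage genes open and effector genes closed until the cell is activated.

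The libraries held 8757280 to 9315370 expected counts in the rapamycin group and 9712671 to 11393317 in the untreated group. A floor of 3 counts corresponded to 0.263 to 0.343 CPM, counts scaled to library size. Variance between libraries of a group was 1.87 times counting noise in the rapamycin group and 1.88 times in the untreated group. The mean fragment length behind the deposited effective lengths was 251.6 to 257.5 bases in the rapamycin libraries and 240.2 to 240.8 bases in the untreated ones. Of 11 naive T cell markers 5 rose and 5 fell, and the list summed to 7131 to 7217 CPM with rapamycin and 6619 to 6704 CPM untreated. Markers of other cells were lower with rapamycin for 7 of 7 tested myeloid genes (the list sums to 14.7 to 16.8 CPM with rapamycin and 48.4 to 56.1 CPM untreated) and 3 of 4 plasma cell genes (5.57 to 6.84 and 36.7 to 37.7 CPM), while both CD8 genes were higher (87.9 to 91 and 19.1 to 20.5 CPM). B cell markers summed to 536 to 570 CPM with rapamycin and 550 to 585 CPM untreated, NK cell markers to 67.8 to 68.9 and 69.4 to 72.7 CPM, and regulatory T cell markers to 43.5 to 48.6 and 43.7 to 46.2 CPM. Dendritic cell markers summed to 2.73 to 3.36 CPM with rapamycin and 4.17 to 5.12 CPM untreated, erythroid markers to 2.62 to 3.13 and 7.99 to 11.3 CPM, and platelet markers to 6.26 to 8.23 and 4.95 to 8.14 CPM. Tnfrsf17 of the plasma cell list was at 0 in every library. Memory and effector genes summed to 454 to 463 CPM with rapamycin and 587 to 610 CPM untreated, and cycling genes to 519 to 557 and 540 to 557 CPM. Behind these sums, 0 of 7 tested B cell genes were higher and 2 lower. The counts were 1 and 2 of 6 for NK cell genes and 2 and 1 of 5 for regulatory T cell genes. They were 3 and 5 of 8 for memory and effector genes and 1 and 4 of 13 for cycling genes. Dendritic, erythroid and platelet lists had 0 and 1 of 1, 0 and 2 of 3, and 1 and 0 of 2. The part of these markers and of fragment length in the results that follow was not tested. In bulk RNA, fewer cells of a type and less RNA per cell cannot be told apart.

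Most of these enzymes were higher after rapamycin. Of the 39 tested, 30 rose (76.9%) and 2 fell (5.13%) at an adjusted p under 0.05, against 24.1% of all 11950 tested genes that were higher and 23.3% that were lower. Among the 200 tested genes nearest in length to each enzyme, a median of 47% were higher (6.5% to 76.5%) and 6% lower. The median log2 fold change, rapamycin over untreated, was 0.31 for the enzymes and −0.01 for all tested genes. On log2(TPM + 1), where TPM is transcripts scaled for length and depth as deposited, 2720 of all genes were higher and 1151 lower, against 2874 and 2785 in the edgeR fit, and with upper-quartile scaling 2459 were higher and 3330 lower. In 32 of the 39 every rapamycin library lay above every untreated one, and in 2 every rapamycin library lay below, where 26.9% and 26.8% of all tested genes did so. All 39 had counts well above the floor in both groups, the lowest being 49 counts, of Kdm8 in one library. The 40 genes together took, rounded, 1.01% of all counts in each of the 3 rapamycin libraries and 0.698%, 0.698% and 0.693% in the untreated ones (exact two-sided permutation p = 0.1, the smallest that 3 against 3 libraries can give). Without Kmt2a, Kmt2c and Kmt2d, the other 37 took 0.611%, 0.611% and 0.612% with rapamycin and 0.471%, 0.472% and 0.467% untreated.

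Many of these genes are long, and fold changes in this comparison followed gene length. The median length was 4559 bases for the tested enzymes and 2366 bases for all tested genes. Across the 39 enzymes Spearman's rho between length and log2 fold change was 0.79, and across all tested genes it was 0.43 (genes share the libraries and are not independent replicates). Among the longest 598 tested genes, 5978 bases and over, the median was 0.30 and 69.7% were higher, both taken over those outside the family. A correction that fits this length trend in each library and removes it left 26 enzymes higher and 2 lower, where 20.2% and 18.2% of all tested genes were higher and lower. The median of the enzymes was then 0.16 and that of all genes −0.01, and rho with length was 0.26 for the enzymes and −0.02 for all genes. Of the 30 enzymes that rose, 24 were still higher with the correction, and 2 others, Kmt5c and Setd6, became so. Set beside the 200 tested genes nearest in length, 35 of the 39 had a log2 fold change above the median of those neighbours and 4 below it, and the median of the 39 differences was 0.18. Length-corrected log2 fold changes of the enzymes are given beside the uncorrected ones below. Medians of genes of like length are uncorrected unless stated. TPM sums and ratios have no correction for the length trend.

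**Figure D1:**
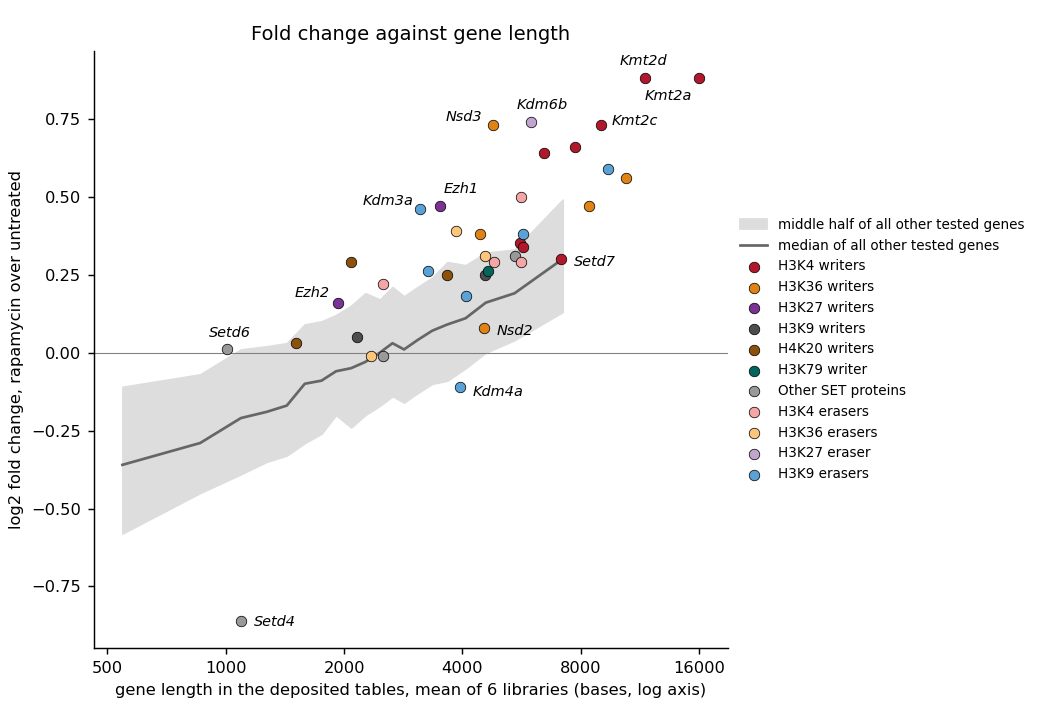
Log2 fold change of each of the 39 tested enzymes (points, coloured by the residue they act on) against gene length in bases on a log axis. The line and grey band are the median and quartile range of all other tested genes in 20 equal groups by length; most enzymes lie above the line, while Setd4, Kdm4a, Nsd2 and Setd3 were below the median of their 200 neighbours in length.

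The largest uncorrected rises and both falls are shown by the DNA at the start sites of their genes. The 4 promoters below are from RefSeq (GRCm38.p6, 250 bases before to 50 after the start of transcription, 5′ to 3′ on the gene's strand). Kmt2d and Kmt2a had the largest rises in the family without the length correction (with it, Nsd3, Kdm6b and Kmt2d lead, at 0.55, 0.50 and 0.46), and Setd4 and Kdm4a were the 2 that fell. Capitals mark matches on either strand to the GC box CCCCGCCC, the ETS core CCGGAAG, the CCAAT box CCAAT, the NRF1 consensus site, the FOXO site GTAAACA and the E2F site TTTGGCGC, and no matches overlap in these windows.
Kmt2d, chr15:98871156-98871455, minus strand: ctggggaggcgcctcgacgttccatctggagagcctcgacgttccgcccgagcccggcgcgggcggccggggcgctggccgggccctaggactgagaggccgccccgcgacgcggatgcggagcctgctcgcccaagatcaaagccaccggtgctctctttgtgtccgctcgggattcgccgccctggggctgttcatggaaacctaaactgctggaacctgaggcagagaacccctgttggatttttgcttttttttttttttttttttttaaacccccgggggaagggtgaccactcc
Kmt2a, chr9:44881240-44881539, minus strand: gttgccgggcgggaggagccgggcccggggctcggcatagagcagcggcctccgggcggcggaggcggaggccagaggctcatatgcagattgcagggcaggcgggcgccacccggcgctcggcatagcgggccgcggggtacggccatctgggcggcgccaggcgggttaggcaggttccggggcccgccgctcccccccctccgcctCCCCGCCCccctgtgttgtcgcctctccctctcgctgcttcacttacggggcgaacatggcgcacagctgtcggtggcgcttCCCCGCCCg
Setd4, chr16:93603766-93604065, minus strand: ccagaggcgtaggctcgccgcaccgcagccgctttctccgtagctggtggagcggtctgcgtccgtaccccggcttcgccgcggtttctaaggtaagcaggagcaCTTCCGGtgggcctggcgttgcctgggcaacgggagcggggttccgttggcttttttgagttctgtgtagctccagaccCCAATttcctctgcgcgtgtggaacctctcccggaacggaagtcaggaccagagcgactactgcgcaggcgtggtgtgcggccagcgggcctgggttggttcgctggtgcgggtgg
Kdm4a, chr4:118179994-118180293, minus strand: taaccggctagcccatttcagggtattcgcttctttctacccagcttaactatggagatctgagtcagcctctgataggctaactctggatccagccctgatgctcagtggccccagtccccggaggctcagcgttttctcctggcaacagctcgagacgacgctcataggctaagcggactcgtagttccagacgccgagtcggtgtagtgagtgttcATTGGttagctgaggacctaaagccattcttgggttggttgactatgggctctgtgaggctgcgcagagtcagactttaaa
The Kmt2a window held 2 GC boxes and 36 CpG dinucleotides, and that of Kmt2d none of the 6 motifs and 27 CpG. The Setd4 window held an ETS core, a CCAAT box and 29 CpG, and that of Kdm4a a CCAAT box and 13 CpG. Promoters of 28 of the 40 genes were in the table, with a median of 25 CpG each against 7 over all 27025 promoters of this length. The GC box was in 10 of the 28 (35.7%, against 17.8% of all promoters), the CCAAT box in 12 (42.9% against 37.9%), the ETS core in 6 (21.4% against 9.12%) and the NRF1 site in 4 (14.3% against 4.78%). The E2F site was in 1, that of Ezh2 (3.57% against 0.537%), and the FOXO site in 0, where 3.55% of all promoters held it. A match is a description of the letters and not a binding site.

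Writers of histone H3 lysine 4 methylation rose as a group, 8 of 8 without and 7 of 8 with the length correction, with medians of 0.65 and 0.37. Long genes outside the family often rose too. Of the 200 tested genes nearest in length to each writer, 54.5% (Kmt2b and Setd1a) to 76.5% (Kmt2d) were higher without the correction. With it, 20.2% of all tested genes were higher. These 8 include Kmt2e, for which no firm methyltransferase activity is established, and so do the sums and ratios of writers given later. Kmt2d, which methylates enhancers (chromosome 15, 98831669 to 98871204), had 2016, 2027 and 2021 CPM in the rapamycin libraries, against 1107, 1084 and 1106 CPM in the untreated ones. Its log2 fold change was 0.88 ± 0.02 (SE; adjusted p = 9.6e-48), or 0.46 length-corrected. Kmt2a, the mixed-lineage leukemia gene, which keeps promoters active (chromosome 9, 44803355 to 44881296), had 1216, 1223 and 1216 CPM with rapamycin and 652, 674 and 662 CPM untreated. It rose by 0.88 ± 0.02 (adjusted p = 6.0e-44), or 0.38 length-corrected. The 200 genes nearest to Kmt2a in length, which at this end of the range run from 7791 to 30942 bases, had a median of 0.40, or 0.03 length-corrected. Both genes were far apart between the groups, with gaps many times wider than the spread within a group.

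Kmt2c, the paralog of Kmt2d at enhancers, had 776, 783 and 800 CPM with rapamycin and 482, 470 and 466 CPM untreated, a log2 fold change of 0.73 ± 0.02 (length-corrected 0.38). Kmt2b, the paralog of Kmt2a, had 342, 327 and 338 CPM with rapamycin and 259, 266 and 264 CPM untreated. Its rise of 0.35 ± 0.03 was the smallest of these 4 and was 0.13 length-corrected, with an adjusted p of 1.2e-04. Kmt2e, which carries a SET domain with no well-established activity and reads lysine 4 methylation, had 431, 425 and 427 CPM with rapamycin and 276, 271 and 274 CPM untreated (0.64 ± 0.03, length-corrected 0.38). In all of these genes the groups were apart. Kmt2e shares 972 exon bases with Srpk2 on the other strand, and whether counting used strand is not given in the sources used here.

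Setd1a and Setd1b, the catalytic subunits of the complexes that lay down most lysine 4 trimethylation at promoters, both rose. Setd1b had 263, 277 and 265 CPM with rapamycin and 167, 174 and 167 CPM untreated (0.66 ± 0.03, length-corrected 0.35). Setd1a had 152, 150 and 154 CPM with rapamycin and 119, 119 and 123 CPM untreated (0.34 ± 0.04, length-corrected 0.11, adjusted p = 0.0149). Its value is uncertain, since 3523 of its exon bases also belong to Gm49388 on the same strand, which was given 9.94, 3.95 and 0.232 CPM with rapamycin and 0, 0.0951 and 3.76 CPM untreated. Setd7, which also methylates proteins other than histones, rose by 0.30 ± 0.04 and was at 0.01 length-corrected (adjusted p = 0.795). Its 200 neighbours in length had a median of 0.28, or −0.01 length-corrected.

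**Figure D2:**
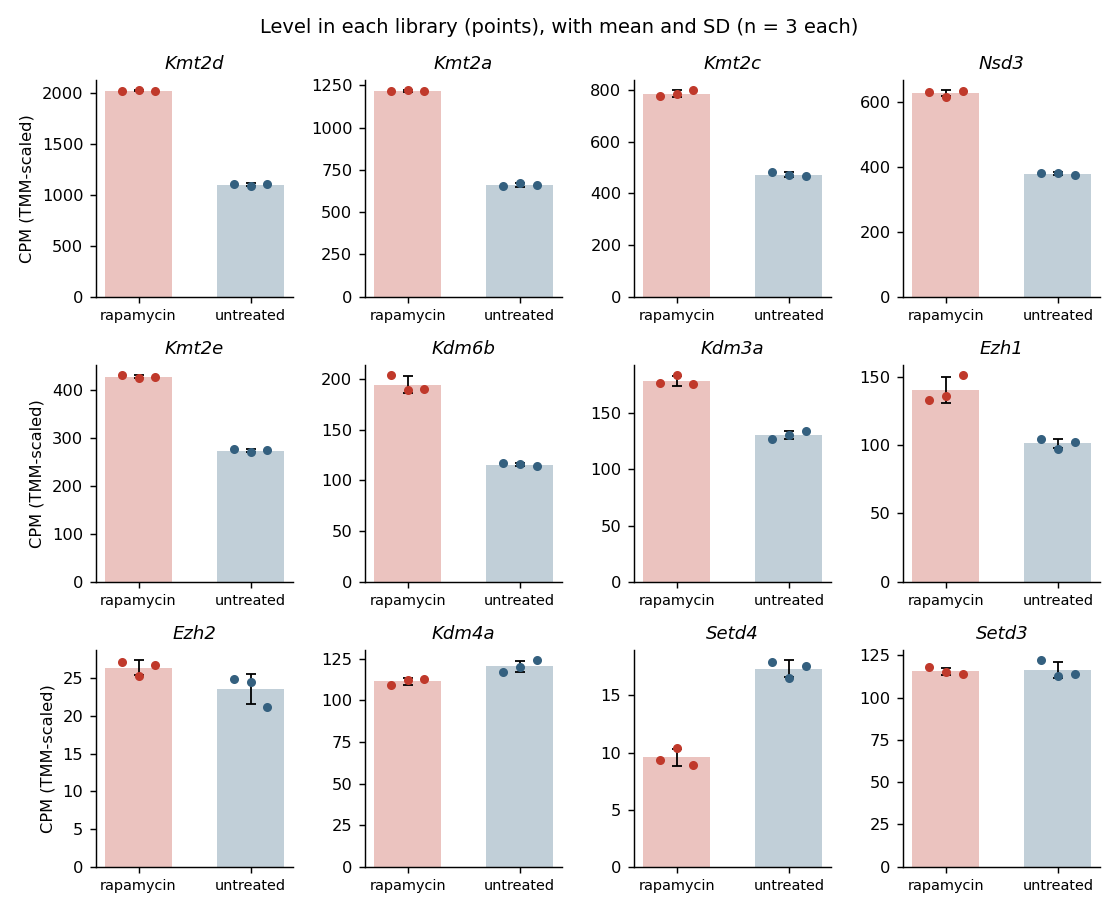
Level of 12 enzymes in each library, in TMM-scaled CPM (points), with the mean (bar) and SD (line) of the 3 rapamycin and the 3 untreated libraries. Kmt2d, Kmt2a, Kmt2c, Nsd3, Kmt2e, Kdm6b, Kdm3a and Ezh1 are higher in every rapamycin library, Ezh2 is so by a margin too small to pass the test, Setd4 and Kdm4a are lower in every one, and Setd3 overlaps.

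Writers of lysine 36 methylation, a mark of transcribed gene bodies and of the regions around them, rose in 4 of 5 cases with and without the length correction. Nsd3, a mono- and dimethyltransferase of this lysine (chromosome 8, 25601601 to 25719667), had 633, 618 and 635 CPM with rapamycin and 383, 381 and 376 CPM untreated. Its log2 fold change was 0.73 ± 0.02 (adjusted p = 4.8e-35) and 0.55 ± 0.02 length-corrected (adjusted p = 6.0e-28), the largest corrected value among the 39. Genes of its length had a median of 0.15, or −0.02 length-corrected. Nsd1 had 480, 485 and 473 CPM with rapamycin and 345, 345 and 344 CPM untreated (0.47 ± 0.02, length-corrected 0.14). Nsd2, whose gene is disrupted in Wolf-Hirschhorn syndrome in humans, had 27.6 ± 0.943 CPM with rapamycin and 26.2 ± 0.498 CPM untreated (SD, n = 3 each), a difference of 0.08 ± 0.09 that did not pass the test (adjusted p = 0.502) and was −0.09 length-corrected, although the CPM of the groups did not overlap. Nsd3 over Nsd2 in TPM was 20.8, 18.5 and 21.2 with rapamycin and 15.2, 16 and 12.8 untreated (exact permutation p = 0.1, or 0.14 adjusted over the 7 ratios computed).

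Setd2, the enzyme that adds the third methyl group to lysine 36, had 234, 229 and 230 CPM with rapamycin and 183, 178 and 172 CPM untreated. It rose by 0.38 ± 0.03 (adjusted p = 6.9e-16), or 0.22 length-corrected. With offsets from the deposited effective lengths, which also carry isoform estimates, it was 0.16 and no longer passed the test (adjusted p = 0.071). Ash1l, the mammalian homolog of the fly gene ash1, had 240, 250 and 238 CPM with rapamycin and 169, 166 and 158 CPM untreated (0.56 ± 0.03, length-corrected 0.17). Every rapamycin library was above every untreated one in both genes.

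The pair that writes lysine 27 methylation within Polycomb repressive complex 2 gave a call for 1 of its 2 members. Ezh1, the form that predominates in resting cells (chromosome 11, 101191115 to 101226463), had 133, 136 and 151 CPM with rapamycin and 104, 97.3 and 102 CPM untreated, a rise of 0.47 ± 0.04 (adjusted p = 1.6e-13), or 0.38 length-corrected. Ezh2, the form tied to proliferating cells (chromosome 6, 47530139 to 47595341), had 27.1, 25.2 and 26.7 CPM with rapamycin and 24.9, 24.5 and 21.2 CPM untreated, which did not overlap, and the difference of 0.16 ± 0.09 did not pass the test (adjusted p = 0.167, or 0.064 length-corrected). The ratio of Ezh1 to Ezh2 in TPM was 2.94, 3.05 and 2.49 with rapamycin and 1.76, 2.45 and 2.25 untreated. The ranges did not overlap, by a narrow margin (exact permutation p = 0.1, adjusted 0.14).

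Dot1l, the writer of lysine 79 methylation, had 152, 147 and 147 CPM with rapamycin and 131, 118 and 123 CPM untreated, a rise of 0.26 ± 0.04 that the length correction took to 0.09 (adjusted p = 0.0616). Setdb1, which silences retroelements through lysine 9 methylation, had 92.9, 98.4 and 95 CPM with rapamycin and 81.3, 82.4 and 77.3 CPM untreated. Its rise of 0.25 ± 0.05 was 0.08 length-corrected and then not called (adjusted p = 0.173). Genes of the length of Dot1l had a median of 0.17, and those of the length of Setdb1 a median of 0.16. Setdb2, a related lysine 9 enzyme, was at 0.05 ± 0.08 (length-corrected 0.08) and its CPM overlapped between groups. On log2(TPM + 1), which uses the isoform-weighted length, Setdb2 was higher by 0.33 (adjusted p = 0.0215, limma), with 25.6, 27.6 and 26.8 TPM with rapamycin and 22, 22.2 and 19.1 TPM untreated.

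Among the writers of histone H4 lysine 20 methylation, Kmt5a, which adds the first methyl group, had 60.9, 58 and 59.2 CPM with rapamycin and 49.2, 49.8 and 46.2 CPM untreated. It rose by 0.29 ± 0.06 (adjusted p = 6.8e-05) and by 0.33 length-corrected, and genes of its length had a median of −0.01. Kmt5b, which adds further methyl groups, had 209, 213 and 211 CPM with rapamycin and 180, 184 and 167 CPM untreated (0.25 ± 0.03, length-corrected 0.16). Kmt5c, its paralog, was at 0.03 ± 0.07 and became a call only with the correction (0.16, adjusted p = 0.0433). Genes of the length of Kmt5c had a median of −0.20 without the correction and −0.07 with it.

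SET proteins with no settled histone site held the larger of the 2 falls. Setd4 (chromosome 16, 93583457 to 93604063) had 9.39, 10.4 and 8.92 CPM with rapamycin and 17.9, 16.5 and 17.6 CPM untreated. Its log2 fold change was −0.86 ± 0.13 (adjusted p = 7.2e-08) and −0.64 ± 0.13 length-corrected (adjusted p = 3.8e-05), and it was lower in 3 of 3 rapamycin libraries than in any untreated one. Setd5 had 255, 241 and 259 CPM with rapamycin and 203, 195 and 211 CPM untreated (0.31 ± 0.03, length-corrected 0.10, adjusted p = 0.0141). Setd3, an actin histidine methyltransferase and so not a histone enzyme, was at −0.01 ± 0.04 (length-corrected −0.01). Setd6, which methylates the NF-kB subunit RelA, was at 0.01 ± 0.09 and 0.25 length-corrected (adjusted p = 0.0182). Genes of the length of Setd6 had a median of −0.25 without the correction and −0.01 with it.

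**Figure D3:**
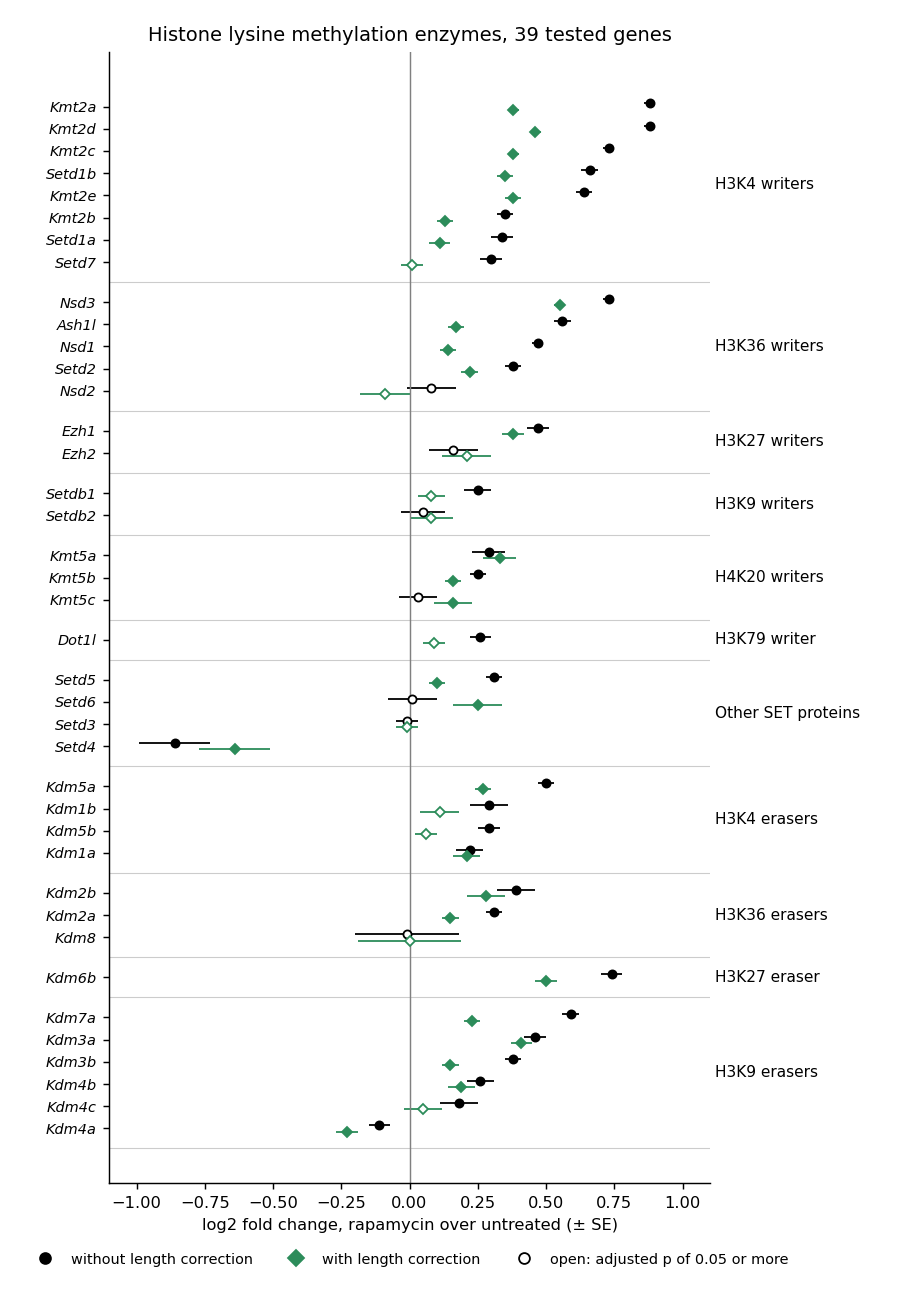
Log2 fold change of the 39 tested enzymes, rapamycin over untreated, with its standard error, before (black circles) and after (green diamonds) the length correction, in groups by the residue they act on. Filled symbols passed an adjusted p of 0.05; 30 circles are filled above 0 and 2 below, and 26 diamonds above and 2 below.

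The erasers as a class also moved upward, 12 of 14 tested members higher and 1 lower, or 9 and 1 with the length correction. Of the 200 tested genes nearest in length to each eraser, 17.5% (Kdm8) to 71% (Kdm7a) were higher without the correction. With it, 20.2% of all tested genes were higher and 18.2% lower. The largest rise was that of Kdm6b, the inducible eraser of lysine 27 methylation (chromosome 11, 69398508 to 69413675), which had 204, 189 and 190 CPM with rapamycin and 117, 116 and 114 CPM untreated. Its log2 fold change was 0.74 ± 0.04 (adjusted p = 1.7e-25), or 0.50 ± 0.04 length-corrected (adjusted p = 2.5e-17). The antisense gene Kdm6bos shares 286 of its exon bases and was given at most 2.37 CPM in any library. The ratio of Kdm6b in TPM to the opposing writers Ezh1 and Ezh2 together was 0.627, 0.585 and 0.488 with rapamycin and 0.438, 0.512 and 0.417 untreated, which overlapped. Kdm7a and the X-linked Kdm6a were not part of this ratio.

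All 4 erasers of lysine 4 methylation rose, 2 of them also after length correction. Among the 200 tested genes nearest in length, 24.5% (Kdm1a) to 54.5% (Kdm5a and Kdm5b) were higher without the correction. Kdm5a, which removes the third methyl group at promoters, had 276, 279 and 293 CPM with rapamycin and 203, 207 and 192 CPM untreated (0.50 ± 0.03, length-corrected 0.27). Kdm1a, the flavin enzyme of the CoREST complex, had 108, 109 and 113 CPM with rapamycin and 90.9, 97.9 and 95.3 CPM untreated, a rise of 0.22 ± 0.05 that was 0.21 length-corrected (adjusted p = 1.1e-04). Genes of its length, 2520 bases, had a median of 0.01. Kdm5b and Kdm1b, the paralogs of these genes, rose by 0.29 each and were at 0.06 and 0.11 length-corrected, neither of them called.

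Erasers of lysine 36 methylation rose in 2 of 3 cases. Kdm2a had 293, 294 and 288 CPM with rapamycin and 235, 230 and 239 CPM untreated (0.31 ± 0.03, length-corrected 0.15). Kdm2b, which also brings Polycomb complexes to CpG islands, had 60.9, 56.5 and 59 CPM with rapamycin and 46.5, 46.9 and 40.6 CPM untreated (0.39 ± 0.07, length-corrected 0.28). That call was lost with effective-length offsets (0.10, adjusted p = 0.574) and on log2(TPM + 1) (0.21, adjusted p = 0.26), both of which use the isoform estimates described below. Kdm8, whose histone activity is debated, was the lowest tested member, with 6.3 ± 0.537 CPM with rapamycin and 6.39 ± 1.54 CPM untreated (−0.01 ± 0.19, length-corrected −0.00).

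Erasers of lysine 9 methylation were 5 higher and 1 lower of 6 tested, or 4 and 1 length-corrected. Kdm3a, which is induced under low oxygen, had 177, 184 and 176 CPM with rapamycin and 127, 131 and 134 CPM untreated, and its rise of 0.46 ± 0.04 was nearly as large length-corrected, at 0.41 (adjusted p = 4.0e-14). Kdm3b had 227, 237 and 231 CPM with rapamycin and 170, 182 and 184 CPM untreated (0.38 ± 0.03, length-corrected 0.15). Kdm7a, which acts on lysines 9 and 27, had 300, 299 and 287 CPM with rapamycin and 197, 196 and 194 CPM untreated (0.59 ± 0.03, length-corrected 0.23). In each of these the groups were apart.

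The KDM4 paralogs, of which Kdm4a, Kdm4b and Kdm4c take the third methyl group off lysines 9 and 36, went different ways. Kdm4b had 98.7, 103 and 93.9 CPM with rapamycin and 85.7, 80.4 and 80.7 CPM untreated (0.26 ± 0.05, length-corrected 0.19), a call that was lost with effective-length offsets (0.18, adjusted p = 0.0662). Kdm4a had 109, 112 and 113 CPM with rapamycin and 117, 120 and 124 CPM untreated, a log2 fold change of −0.11 ± 0.04 (adjusted p = 0.0243), or −0.23 ± 0.04 length-corrected (adjusted p = 8.8e-06). Without the correction the fall was no longer called when untreated replicate 3 (−0.09) or rapamycin replicate 1 (−0.10) was left out, or by DESeq2 (−0.11, adjusted p = 0.105), and on log2(TPM + 1) the value was 0.01. Kdm4c rose by 0.18 ± 0.07, with an adjusted p of 0.0207 that was lost without untreated replicate 1 (0.18) or 3 (0.11), without rapamycin replicate 1 (0.17), by DESeq2 (0.19, adjusted p = 0.0782) and with the length correction (0.05). Kdm4d, a gene of the testis, did not pass the filter, with 1 count in 1 rapamycin and 1 in 1 untreated library.

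Levels of different genes were compared per length, in the deposited TPM. In untreated cells Kmt2d was the highest of the family at 134 ± 2.48 TPM, followed by Nsd3 at 110 ± 0.673 TPM, Kmt2c at 74.3 ± 0.607 and Kdm2a at 72.2 ± 4.34 TPM (SD, n = 3). Kmt2c and Kdm2a differed by less than the spread of Kdm2a, as did the next pair, Kmt5b at 66.6 ± 4.62 TPM and Kmt2b at 66.3 ± 0.65 TPM, by less than the spread of either. The order with rapamycin began with Kmt2d at 236 ± 9.28, Nsd3 at 194 ± 4.52, Kmt2c at 120 ± 0.505 and Kmt2a at 108 ± 0.95 TPM. Kmt2a thus stood at rank 4 with rapamycin and rank 11 untreated, while Setd4 stood at rank 37 and rank 27. Summed over the writers, TPM was 1538, 1531 and 1560 with rapamycin and 1028, 1016 and 1006 untreated, and over the erasers it was 663, 659 and 656 with rapamycin and 481, 485 and 486 untreated. The ratio of writers to erasers was 2.32, 2.32 and 2.38 with rapamycin and 2.14, 2.1 and 2.07 untreated (exact permutation p = 0.1, adjusted 0.14). These sums and ratios carry no correction for the length trend. The median log2 fold change was 0.35 for writers and 0.30 for erasers, and length-corrected it was 0.17 for both. Length-corrected medians of writers and erasers were 0.37 and 0.16 for lysine 4, and 0.17 and 0.15 for lysine 36. For lysine 4 alone the ratio of writers to erasers was 4.04, 3.95 and 4.04 with rapamycin and 3.43, 3.45 and 3.41 untreated. It leaves out the X-linked Kdm5c, which had 191 ± 3.23 CPM with rapamycin and 159 ± 2.86 CPM untreated. For lysine 36, with only Kdm2a, Kdm2b and Kdm8 counted as erasers, the ratio was 3.31, 3.46 and 3.16 with rapamycin and 2.75, 2.72 and 2.61 untreated. Kdm4a, Kdm4b and Kdm4c, which act on lysine 36 too, were counted under lysine 9 only, so this ratio leaves out part of the lysine 36 erasers. The ratio of erasers to writers of lysine 9 overlapped between the groups.

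**Figure D4:**
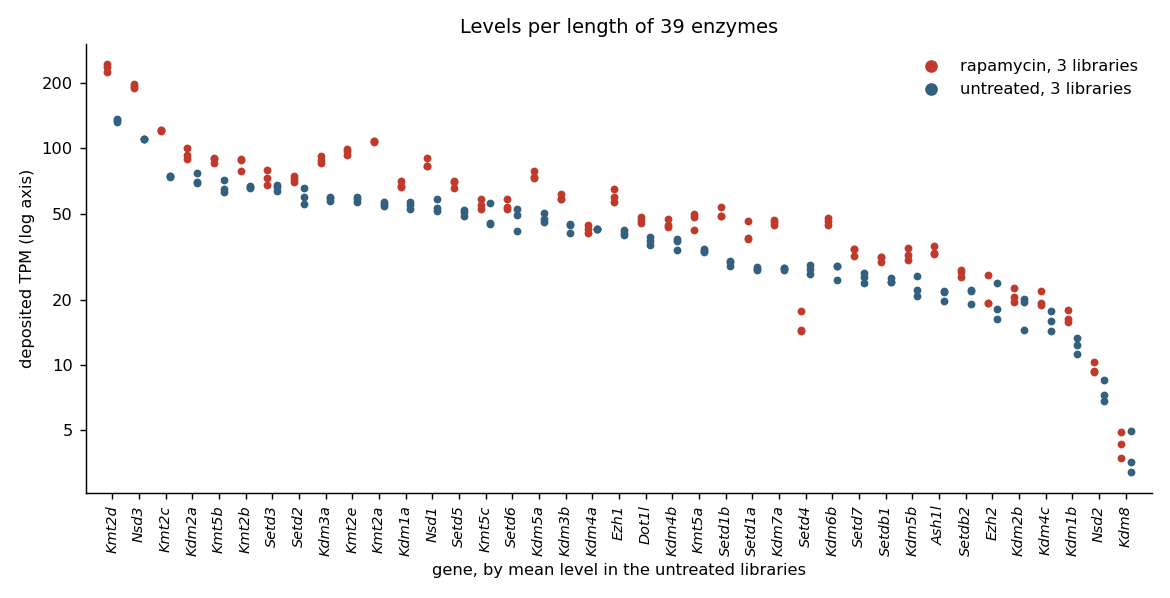
Deposited TPM of the 39 tested enzymes in each of the 3 rapamycin and 3 untreated libraries, on a log axis, ordered by the mean of the untreated libraries. Kmt2d and Nsd3 lead in both groups, Kdm8 is lowest, and Setd4 is the gene whose rapamycin points lie clearly below the untreated ones.

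The deposited gene length is a mean over a gene's transcripts weighted by their estimated shares, so a difference between groups shows a different mix of isoforms in the authors' estimates. All 39 tested enzymes have more than 1 transcript. In 5 of them every rapamycin library had a longer value than every untreated one and in 5 a shorter one, where 7.14% and 9.98% of the 10228 tested genes with several transcripts did so (12.8% of the enzymes in each direction). Kmt2d was at 12141, 11858 and 12782 bases with rapamycin and 11304, 10805 and 10902 bases untreated. Setd2 was at 4634, 4664 and 4855 bases with rapamycin and 3916, 4194 and 4317 bases untreated, and Kdm2b at 4007, 4294 and 4275 against 3282, 3394 and 3910 bases. Kmt2c and Kmt2b were the other 2 with longer values. The shorter ones were Setdb2, with 2085, 1954 and 2066 bases with rapamycin and 2216, 2387 and 2230 bases untreated, and Setd1a, Kdm3a, Setd5 and Kdm7a. Each of these 10 had an exact permutation p of 0.1, or 0.39 adjusted over the 39 genes, the smallest that 3 against 3 libraries allow being 0.1 before adjustment. Mean fragment length also differed between the groups, and its part in these estimates was not tested.

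**Figure D5:**
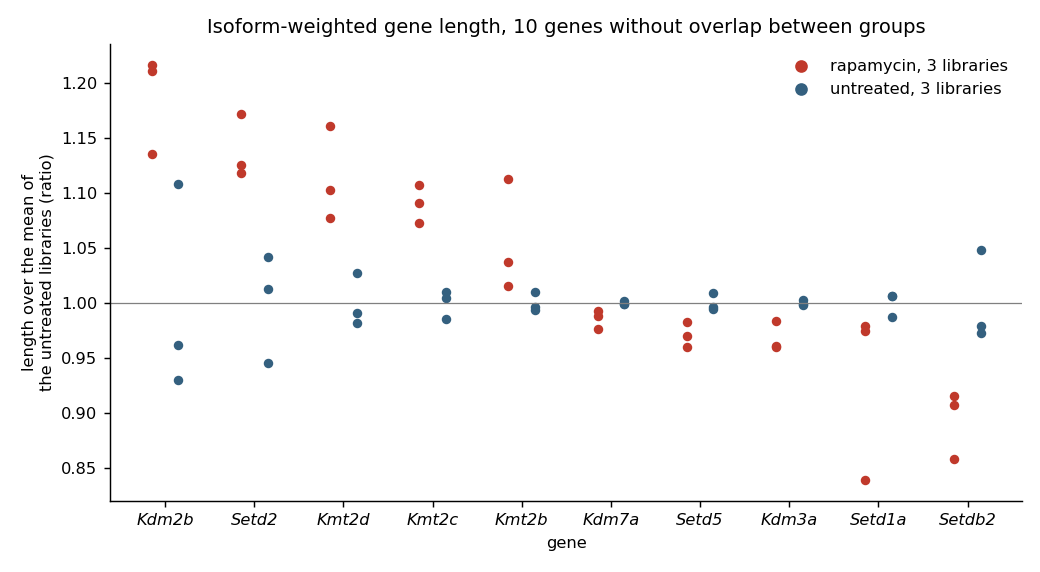
Isoform-weighted gene length in each library, as a ratio to the mean of the 3 untreated libraries, for the 10 enzymes in which the groups did not overlap. Kdm2b, Setd2, Kmt2d, Kmt2c and Kmt2b are longer in every rapamycin library and the other 5 shorter.

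Partners of these enzymes were counted in the same fits. Over all tested genes 24.1% were higher and 23.3% lower, or 20.2% and 18.2% length-corrected, and the counts below lie beside these shares. Of 14 tested partners of the lysine 4 writers, 8 rose and 0 fell (median 0.17, length-corrected 6 and 0, median 0.10). Psip1, the chromatin tether of Kmt2a, had 234 ± 2.1 CPM with rapamycin and 191 ± 5.17 CPM untreated, a rise of 0.29 ± 0.03 that was 0.29 length-corrected, and Ncoa6, found with Kmt2c and Kmt2d, rose by 0.41 (length-corrected 0.24). Bod1l, with the lowest p of this list, rose by 0.42 and was at 0.03 length-corrected, and Hcfc1 rose by 0.23 and was at −0.06, neither of them then called. Of 10 partners of Ezh1 and Ezh2, 3 rose and 2 fell (median 0.06, length-corrected 2 and 3, median 0.02). Phf1, which guides the complex to chromatin, rose by 0.20 (length-corrected 0.20), Suz12, a core subunit, by 0.15 (length-corrected 0.02, not called), and Epop changed by −0.44 (length-corrected −0.43). All 6 Dot1l partners rose, but 3 were higher and 1 lower with the correction, with Mllt6 at 0.18 and −0.10 length-corrected. Of 11 CoREST partners of Kdm1a, 4 rose and 2 fell (length-corrected 2 and 1), with Zmym2 at 0.34 (length-corrected 0.29) and Hdac1 at −0.17 (length-corrected −0.07, and 0.08 on log2(TPM + 1)).

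Genes next to the family in function gave the following counts. Of 17 tested members of Polycomb repressive complex 1, some forms of which bind methylated lysine 27, 7 rose and 4 fell (median 0.09, length-corrected 5 and 3). Cbx2 had 25 ± 1.25 CPM with rapamycin and 13 ± 1.9 CPM untreated, a rise of 0.94 ± 0.11 (length-corrected 0.85), and Cbx7 rose by 0.42 (length-corrected 0.34). Of 15 other lysine methyltransferases 5 rose and 2 fell (median 0.03, length-corrected 4 and 2), among them Prdm2 at 0.41 (length-corrected 0.11) and Smyd2 at −0.66 (length-corrected −0.52). Of 13 other JmjC proteins 6 rose and 0 fell (median 0.17, length-corrected 3 and 0), with Phf8 at 0.38 (length-corrected 0.21, and 0.24 and not called with effective-length offsets) and Jmjd1c at 0.29 (length-corrected 0.05, not called). Of the 4 sex-linked relatives 3 rose, Kdm5c by 0.26, Kdm6a by 0.32 and Uty by 0.38 (length-corrected 0.08, 0.26 and 0.25), the call of Kdm5c being lost with effective-length offsets (0.11). Arginine methyltransferases had 1 higher and 3 lower of 8 (median −0.15, length-corrected 2 and 2, median −0.09), with Prmt6 at −0.36 (length-corrected −0.38, and −0.28 and not called on log2(TPM + 1)) and Prmt1 at −0.15, which turned to 0.13 with the correction. Of 9 genes of the S-adenosylmethionine cycle 3 rose and 0 fell (median 0.05, length-corrected 3 and 0), with Ahcyl1 at 0.33 (length-corrected 0.30) and Mtr at 0.21 (length-corrected −0.00, not called). Mat2a, which makes S-adenosylmethionine, was at 0.10 (length-corrected 0.10), and its call was lost with upper-quartile factors (0.05, adjusted p = 0.163), no composition factors (0.06), effective-length offsets (0.09) and no filter (0.08), and without untreated replicate 3 or rapamycin replicate 1 (0.08 each). These shares lie beside 24.1% higher and 23.3% lower over all tested genes, or 20.2% and 18.2% length-corrected, and the lists are small and share members.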

How the data were processed

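Poly(A) RNA of naive CD4+ T cells from mouse spleen was measured in 6 libraries. Library construction used a directional NEBNext Ultra II kit on RNAiso PLUS extracts, per the labels' protocols. Per the submitters' processing notes, STAR and RSEM were used with mm10, and versions and strand settings are not given in the sources used here. The authors' deposited expected counts are RSEM estimates per gene that need not be whole. Between 25.9% and 29.7% of a library's counts fell on genes whose estimate was not whole. The authors' TPM values divide by an effective length before depth scaling, and their FPKM values were not used. Each file also gives a gene length, deposited as another estimate, which RSEM weights by isoform share.

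Of 55487 gene identifiers, 55227 matched GENCODE vM21 on GRCm38, the assembly mm10 names, and 260 did not, holding up to 0.013% of the counts in any library. After rounding, expected counts were filtered with filterByExpr (11950 genes left), TMM-scaled and tested with edgeR's quasi-likelihood test with group as the only term. P-values were adjusted by the Benjamini-Hochberg method over all tested genes, with a threshold of 0.05. The standard error is the log2 fold change over the square root of F. CPM are counts relative to the TMM-scaled library size. For the length correction, each library's deviation from the 6-library mean log2 CPM was modelled on log2 of the deposited gene length, averaged over the libraries, using a natural spline (5 df) trained on genes averaging 2 or more on the log2 CPM scale, and the prediction entered as offsets. As a plain comparison, each member was also set beside the 200 tested genes nearest to it in length.

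Per-library values were given for members called in one direction with and without the length correction and for 10 members fixed by name, and up to 4 called genes of each partner list were eligible to be named. The members, the lists and these rules were chosen with earlier results of these data known. The fit was also run on simulated counts that held no isoform or fragment-length effect, and the outcome is not given here. Alternatives covered scaling, filtering, length and GC offsets, limma on TPM, DESeq2, a replicate block and leaving out libraries. Software was edgeR 4.0.16, with limma 3.58.1 and DESeq2 1.42.0, under R 4.3.3; tables came from Python 3.11.15 and figures from matplotlib 3.10.9.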

Additional observations from a re-analysis of the deposited data

How the results depend on the processing

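Under the 21 alternatives the number of enzymes that rose stayed between 26 and 30, except for 18 in the test against a fold of 1.2. Of 819 pairs of an enzyme and an alternative, 737 kept direction and call, 47 lost the call, 8 gained it and 27 turned direction. The 16 enzymes that were higher in every fit were Ash1l, Ezh1, Kdm3a, Kdm3b, Kdm5a, Kdm6b, Kdm7a, Kmt2a, Kmt2b, Kmt2c, Kmt2d, Kmt2e, Nsd1, Nsd3, Setd1a and Setd1b. The share of all tested genes that were higher in every fit was not computed, so this count has no background beside it. Setd1a stays uncertain in each fit, because it shares exon bases with Gm49388 on the same strand. The number that fell was 1, not 2, with effective-length offsets, with DESeq2, on log2(TPM + 1) and log2(TPM + 0.1) and against a fold of 1.2. Over all genes, the fold test left 990 higher and 894 lower, effective-length offsets left 1801 lower, log2(TPM + 1) left 1151 lower and log2(TPM + 0.1) left 1137 lower. The median of the enzymes, 0.31, was 0.16 with length offsets, 0.17 with length and GC offsets, 0.27 with upper-quartile and with no composition factors, 0.29 with no filter and 0.41 on both TPM scales, where the median of all genes moved to 0.09 and 0.10, against −0.01. Leaving out 1 library gave 29 to 30 enzymes higher and 1 to 2 lower, 2579 to 2698 of all genes higher and 2486 to 2562 lower, and a median of 0.31 to 0.33.

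The labels do not say whether the replicate numbers pair libraries. Libraries of the same number had correlations of −0.105, 0.046 and −0.086 between their deviations, and those of different numbers −0.091 to 0.162. With 3 libraries a group, these values cannot show whether libraries were paired. With the replicate number as a block, 30 enzymes rose and 2 fell, and 2850 of all genes were higher and 2743 lower. The block with length offsets gave 27 higher, 2 lower and a median of 0.16.

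Direction turned in these cases, as log2 fold changes, and the cause was not tested. Kdm4a was at 0.01 on both TPM scales. Kdm8 was at 0.02 with length and GC offsets and with limma-voom, 0.03 with effective lengths, 0.13 and 0.16 on the TPM scales with 1 and 0.1 added, and 0.01 with the block and length offsets. Setd3 was at 0.04 with effective lengths and 0.15 on both TPM scales. Kmt5c was at −0.01 and Setd6 at −0.03 with upper-quartile and no composition factors, and Setd6 at −0.01 with no filter. Nsd2 was at −0.09 with length, with length and GC, and with block and length offsets. In those 3 fits in the same order Hcfc1 was at −0.06, −0.03 and −0.06, Aff4 at −0.03, −0.04 and −0.03, Mllt6 at −0.10, −0.09 and −0.10, Aff1 at −0.08, −0.06 and −0.08, and Prmt1 at 0.13, 0.14 and 0.13. Suz12 was at −0.01 with length and GC offsets, Mtr at −0.00 with length offsets and Hdac1 at 0.08 on both TPM scales. Leaving out 1 library turned 4 uncalled enzymes, with ranges of −0.14 to 0.19 for Kdm8, −0.03 to 0.02 for Setd3, −0.03 to 0.07 for Setd6 and −0.03 to 0.12 for Setdb2.

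The floors of 3 counts cover counting error only, while the standard errors carry the spread between libraries. With 3 libraries a group, a single ratio or length could not reach 0.05 in an exact test. Ezh2, Nsd2, Kdm8 and Setdb2 had standard errors of 0.08 to 0.19, so differences of that size, and somewhat larger ones, could go undetected. Ezh2, at 0.16 ± 0.09, was not called. Mean fragment length did not overlap between the groups, so the 2 cannot be told apart.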
